A study of Mus musculus with 12 samples.

Results

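The p53 pathway was described here through its feedback genes and the genes that p53 switches on, across 4 groups of mouse pluripotent stem cells. The members are a named set of 34 genes, selected by symbol among the array's probe sets. They and the other gene lists below were chosen with earlier results of these data known. Shares of all probe sets are printed beside them as a description, not as a test of the lists. Of the 34 members, 31 were measured, each by 1 probe set among the 25206 on the array. Trp53, Bax and Gdf15 were not analysed here. p53 is a transcription factor that is stabilised by DNA damage and other stress. It binds a pair of short half-sites in its target genes and raises transcripts that halt the cell cycle, repair DNA or start cell death. One of its targets, Mdm2, encodes the ubiquitin ligase that degrades p53, which closes a negative feedback loop. In embryonic stem cells p53 protein is known to be abundant and the G1 phase short.

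RNA came from iPSC (somatic cells reprogrammed to pluripotency) and from ESC (embryonic stem cells). Both cell types were female and had a C57BL/6 background, and they were kept undifferentiated without serum or feeder cells in 2iLIF, a medium with LIF and a pair of kinase inhibitors that holds mouse cells in the naive state. All cells had been loaded with TMRM, a cationic dye that gathers in mitochondria as their membrane potential grows, and were split by flow sorting into a high and a low fraction. The 4 groups were iPSC high, iPSC low, ESC high and ESC low, with 3 arrays each, numbered 2, 3 and 4. The labels give no mutation, no line or clone, no way of reprogramming and no unsorted cells, and do not say that arrays came from separate cultures, so the spread that the p-values rest on is that of these samples and can be technical. Every level below is on the log2 scale of the arrays, every difference is between log2 levels, and every ± is a standard error.

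The 12 array medians lay between 3.51 and 3.61, and the correlation across probe sets was 0.991 to 0.994 within groups and 0.986 to 0.994 between them. Markers were read for the pluripotent state and for other cells, not to tell iPSC and ESC apart, since both carry the same markers. The mean level of 12 pluripotency markers was 8.28 to 8.41 in iPSC high arrays and 8.33 to 8.47 in iPSC low arrays, and 8.20 to 8.36 in ESC high arrays and 8.19 to 8.44 in ESC low arrays. The mean of 12 fibroblast markers was 2.67 to 2.82 over the 12 arrays and that of 8 endoderm markers 3.72 to 4.03. Single markers lay far from their list mean. The endoderm marker Lama1 had group means of 6.84 to 7.12, above the 5.93 to 6.09 of the pluripotency marker Pou5f1. The pluripotency marker Dppa5a had group means of only 3.87 to 4.01. None of these markers passed the test between the fractions over both cell types. Between the cell types 1 passed, the pluripotency factor gene Klf2, which was higher in iPSC (0.39 ± 0.09, adjusted p = 0.0369), as were 0.916% of all probe sets.

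Over both cell types, mRNA of 10 of the 31 members was lower in the high fraction and mRNA of none was higher (limma, Benjamini-Hochberg adjusted p under 0.05 over all 25206 probe sets). In such bulk samples fewer cells of a type and less RNA per cell cannot be told apart. The background for that count was 0.905% of all probe sets lower and 1.6% higher. Unlike the members, that background was not chosen with earlier results known. The 10 were Mdm2, the growth and cell cycle genes Trp53inp1, Ccng1, Zmat3 and Phlda3, the cell death genes Eda2r, Tnfrsf10b and Pidd1, and the repair and detoxification genes Polk and Ephx1. The median difference over the 31 members was -0.36, with 27 members (87.1%) below 0, while over all probe sets the median was 0.0 with 49.1% below 0. In the same comparison 14 of 19 measured G2 and mitosis genes were higher in the high fraction, and their part in the p53 gene differences was not tested. The member differences ran between -1.19 for Ephx1 and 0.22 for Rrm2b. With each array centred on its own median, 13 members were lower, Plk2, Ercc5 and Perp being added, and 1.46% of all probe sets were lower (368, with 361 higher), with their median shifted by -0.04.

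**Figure D1:**
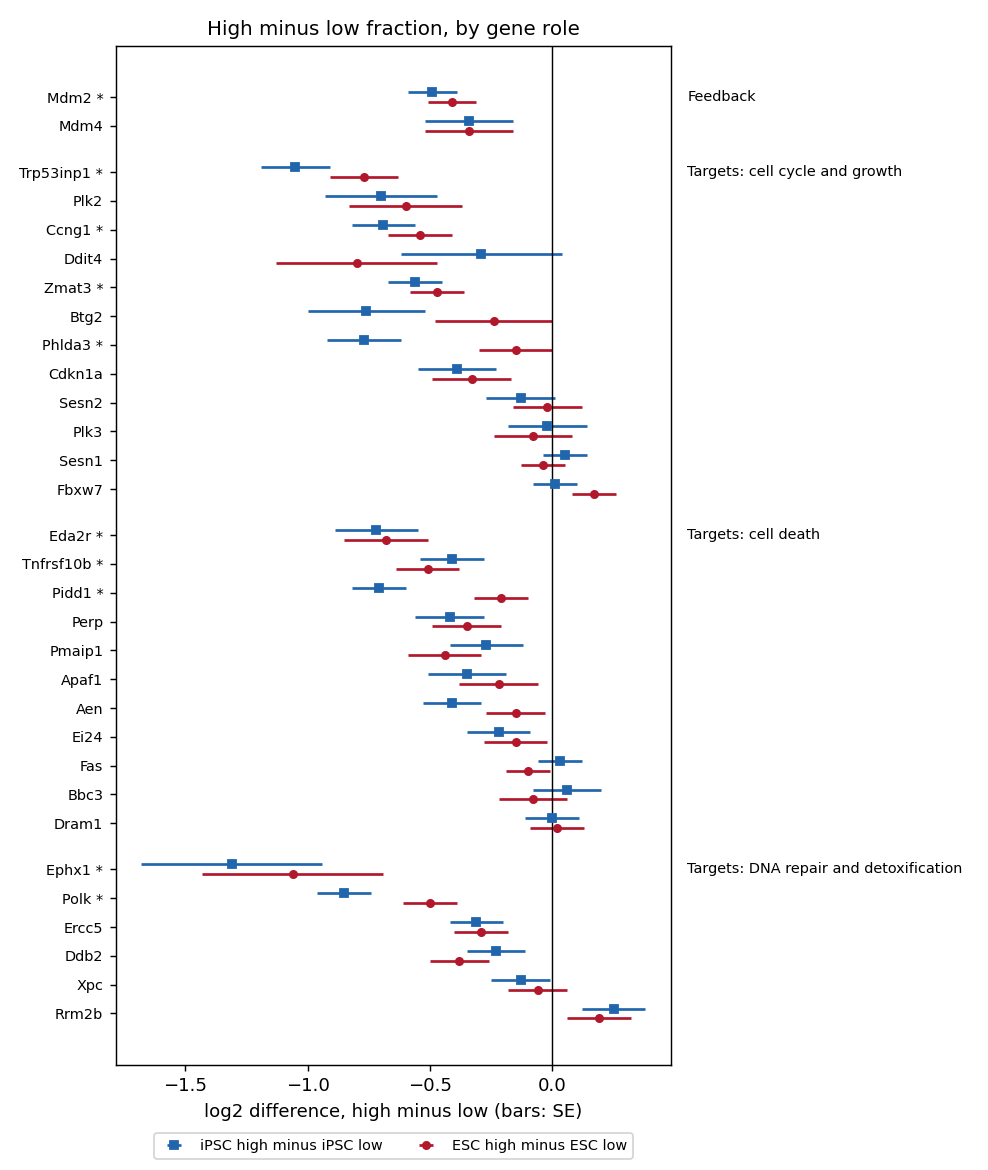
Difference in log2 level, high minus low (horizontal), of the 31 measured p53 genes in iPSC (squares) and in ESC (circles), grouped by role, with standard errors as bars. An asterisk marks the 10 genes that passed the test over both cell types, and 26 of the 31 iPSC and 28 of the 31 ESC estimates lie below 0.

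The promoters of Mdm2, Ccng1 and Polk are shown as those of members that fell and hold a match to the p53 half-site, the consensus that a p53 dimer contacts, and that of Cdkn1a as the single member window with a full site. The windows run 250 bases before to 50 bases after a RefSeq transcript start in GRCm38.p6, and are written 5′ to 3′ on the strand of the gene with the half-sites in capitals. Mdm2 lies on the minus strand at chr10:117710709-117711008, Cdkn1a on the plus strand at chr17:29090729-29091028 (its first window of 2), Ccng1 on the minus strand at chr11:40755237-40755536 and Polk on the minus strand at chr13:96519138-96519437 (its first window of 2).
Mdm2: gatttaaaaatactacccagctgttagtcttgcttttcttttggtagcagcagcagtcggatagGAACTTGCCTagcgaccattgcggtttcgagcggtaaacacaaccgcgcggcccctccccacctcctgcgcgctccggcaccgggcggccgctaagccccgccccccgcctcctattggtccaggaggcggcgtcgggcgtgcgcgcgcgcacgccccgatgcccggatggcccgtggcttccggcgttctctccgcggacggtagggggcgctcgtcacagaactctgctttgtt
Cdkn1a: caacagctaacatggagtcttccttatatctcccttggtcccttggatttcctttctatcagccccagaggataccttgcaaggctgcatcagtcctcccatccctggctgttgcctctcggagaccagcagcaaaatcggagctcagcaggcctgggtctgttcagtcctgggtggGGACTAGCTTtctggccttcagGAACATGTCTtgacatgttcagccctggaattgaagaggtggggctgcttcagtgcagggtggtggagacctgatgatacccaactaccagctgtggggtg
Ccng1: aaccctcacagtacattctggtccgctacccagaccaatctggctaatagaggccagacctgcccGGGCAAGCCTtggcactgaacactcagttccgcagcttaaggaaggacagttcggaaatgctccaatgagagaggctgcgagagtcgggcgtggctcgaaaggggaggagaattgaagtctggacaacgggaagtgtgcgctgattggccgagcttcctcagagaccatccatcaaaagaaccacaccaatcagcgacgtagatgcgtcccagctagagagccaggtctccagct
Polk: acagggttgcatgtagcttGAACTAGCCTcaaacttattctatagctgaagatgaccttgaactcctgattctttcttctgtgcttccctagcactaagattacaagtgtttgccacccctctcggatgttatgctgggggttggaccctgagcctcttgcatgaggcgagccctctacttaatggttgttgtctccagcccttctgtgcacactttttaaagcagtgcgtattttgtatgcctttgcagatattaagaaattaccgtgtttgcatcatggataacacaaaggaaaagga
The half-site begins at -186 in Mdm2, at -185 in Ccng1 and at -231 in Polk, counted from the transcript start of the window shown. The Cdkn1a window shown holds half-sites at -73 and -51 with a gap of 12 bases, close enough (at most 13 bases apart) to be counted as a full site. The second windows of Cdkn1a and Polk, at other transcript starts, held 0 half-sites. Windows were available for 23 of the 31 members, 32 in all, and 8 of the 32 (25.0%) held a half-site and 1 (3.12%) a full site. The other windows with a half-site, not shown, belonged to Sesn1, Ei24 and Aen, members that did not pass the test, and the 2 windows of Aen overlap. Among all 32851 windows in the table, 2745 (8.36%) held a half-site and 24 (0.0731%) a full site. The search used the half-site by name on both strands, where it reads as the same class. It allowed no mismatch, so an imperfect half-site next to a marked one is not marked or counted. Of the 7 members with a window that were lower over both cell types, 3 held a half-site, and of the 16 others, 4 did. A match describes the letters of the window only.

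In the feedback loop, Mdm2 fell and its relative Mdm4, which binds and inhibits p53 without degrading it, did not pass the test. Mdm2 had levels of 6.60, 6.69 and 6.46 in iPSC high arrays, against 7.14, 6.99 and 7.11 in iPSC low arrays. In ESC they were 6.72, 6.92 and 6.87 in ESC high arrays, against 7.19, 7.37 and 7.18 in ESC low arrays. In both cell types every high array lay below every low array. The difference over both cell types was -0.45 ± 0.07 (fold 0.731, adjusted p = 0.00508), and the gene was lower in 6 of 6 pairs, a pair being the high and low arrays of a cell type with 1 replicate number. Mdm4 had levels of 7.87, 7.61 and 7.94 in iPSC high arrays, against 8.13, 8.05 and 8.25 in iPSC low arrays. In ESC they were 7.56, 8.11 and 8.13 in ESC high arrays, against 7.94, 8.53 and 8.34 in ESC low arrays. The iPSC arrays were apart, and the ESC arrays overlapped, with replicate 2 the lowest of both ESC fractions. The difference was -0.34 ± 0.12 (adjusted p = 0.203). Mdm4 was also lower in 6 of 6 pairs, by 0.21 to 0.45, and with the replicate number as a block its adjusted p was 0.0262.

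Cdkn1a encodes p21, the inhibitor of cyclin-dependent kinases and the best known p53 target. Its levels were 9.83, 9.78 and 9.63 in iPSC high arrays, against 10.20, 10.10 and 10.11 in iPSC low arrays. In ESC they were 10.04, 9.45 and 9.61 in ESC high arrays, against 10.38, 9.82 and 9.88 in ESC low arrays. The iPSC arrays did not overlap, and the ESC arrays did, since the high array of replicate 2 lay above the low arrays of replicates 3 and 4. The difference was -0.36 ± 0.12, with a 95% interval of -0.61 to -0.11, and did not pass the test (adjusted p = 0.144). Within pairs the differences were close together, 6 of 6 lower by 0.27 to 0.48, and the blocked fit gave an adjusted p of 0.0167. Cdkn1a had a mean level above that of 99.5% of probe sets.

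Among the 12 measured cell cycle and growth targets, 4 fell, against 0.905% of all probe sets, and 8 did not pass the test. The median difference of the 12 was -0.48. Trp53inp1, a nuclear protein that boosts p53 activity and autophagy, had the lowest adjusted p of any member. It had levels of 6.88, 6.66 and 6.75 in iPSC high arrays, against 7.88, 7.64 and 7.91 in iPSC low arrays. Its ESC levels were 6.86, 7.04 and 7.14 in ESC high arrays, against 7.48, 8.08 and 7.78 in ESC low arrays. No high array reached a low array in either cell type, and the difference was -0.91 ± 0.10 (fold 0.533, adjusted p = 0.000731). Ccng1, cyclin G1, which recruits protein phosphatase 2A to Mdm2, had levels of 8.12, 7.88 and 8.12 in iPSC high arrays, against 8.80, 8.54 and 8.85 in iPSC low arrays. Its ESC levels were 8.17, 8.57 and 8.51 in ESC high arrays, against 8.90, 9.07 and 8.88 in ESC low arrays. Its groups did not overlap in either cell type, and it differed by -0.61 ± 0.09 (fold 0.653, adjusted p = 0.00392).

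Zmat3, a zinc finger protein that binds RNA and alters splicing, was the third of these genes with no overlap. Its levels were 6.72, 6.89 and 7.02 in iPSC high arrays, against 7.48, 7.27 and 7.56 in iPSC low arrays. In ESC they were 7.0, 7.22 and 7.08 in ESC high arrays, against 7.65, 7.49 and 7.56 in ESC low arrays. The difference of -0.51 ± 0.08 had an adjusted p of 0.00475. Phlda3, which competes with Akt for membrane lipids, had levels of 5.45, 5.29 and 5.32 in iPSC high arrays, against 6.32, 5.73 and 6.31 in iPSC low arrays. In ESC they were 5.92, 5.68 and 5.72 in ESC high arrays, against 5.78, 5.95 and 6.04 in ESC low arrays. The iPSC arrays were apart and the ESC arrays overlapped. Its difference over both was -0.46 ± 0.10 (adjusted p = 0.039), and this call was lost without any 1 array except iPSC low replicate 3, with adjusted p up to 0.0998.

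Several growth targets had large differences with a wide spread and did not pass. Plk2, a Polo-like kinase of the stress response, differed by -0.65 ± 0.16 (adjusted p = 0.058), and Btg2, an antiproliferative cofactor of mRNA decay, by -0.50 ± 0.17 (adjusted p = 0.157). Ddit4, an inhibitor of mTORC1 signalling, differed by -0.55 ± 0.23 (adjusted p = 0.271) and had 1 far array, 4.98 in ESC high replicate 4, against 6.70 in the ESC low array of that number. Members near 0 were Sesn1 with 0.01 ± 0.07 and Sesn2 with -0.08 ± 0.10, stress sensors upstream of mTORC1, Plk3 with -0.05 ± 0.11, and Fbxw7, the ubiquitin ligase receptor for cyclin E and Myc, with 0.09 ± 0.07. Fbxw7 was the single member whose ESC high arrays all lay above its ESC low arrays, although the nearest pair of arrays both read 6.40.

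**Figure D2:**
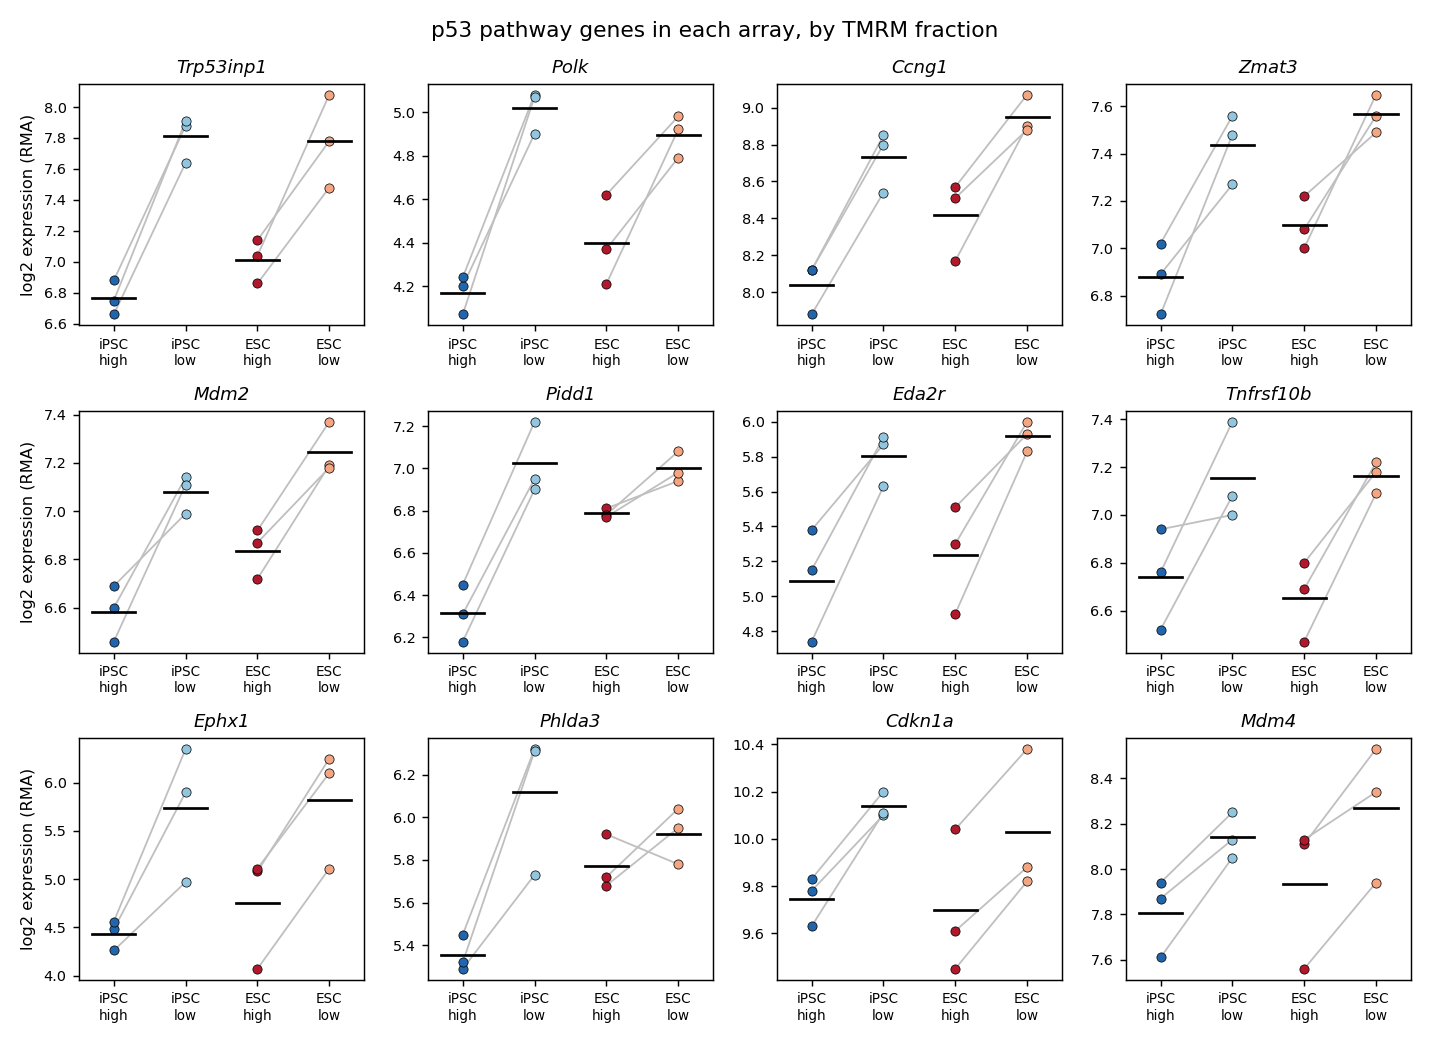
Log2 level (vertical, own scale in each panel) of the 10 p53 genes that were lower over both cell types and of Cdkn1a and Mdm4, with a point for each of the 12 arrays, a black bar for each group mean and a grey line between the high and low arrays of 1 replicate number. The high arrays of Trp53inp1 span 6.66 to 7.14 and its low arrays 7.48 to 8.08, so that they do not overlap in either cell type.

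Among the 11 measured cell death targets, 3 fell, against 0.905% of all probe sets, and 8 did not pass the test. The median difference of the 11 was -0.29. Eda2r, a receptor of the tumour necrosis factor family for ectodysplasin A2, had levels of 5.38, 4.74 and 5.15 in iPSC high arrays, against 5.87, 5.63 and 5.91 in iPSC low arrays. Its ESC levels were 4.90, 5.30 and 5.51 in ESC high arrays, against 5.83, 6.00 and 5.93 in ESC low arrays. The high and low arrays were apart in both cell types, and the difference was -0.70 ± 0.12 (fold 0.616, adjusted p = 0.00983). Pidd1, the scaffold of the complex that activates caspase-2, had levels of 6.31, 6.18 and 6.45 in iPSC high arrays, against 6.95, 6.90 and 7.22 in iPSC low arrays. Its ESC levels were 6.81, 6.78 and 6.77 in ESC high arrays, against 6.94, 7.08 and 6.98 in ESC low arrays. Here too no arrays overlapped, with -0.46 ± 0.07 over both cell types (adjusted p = 0.00628).

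Tnfrsf10b, the mouse receptor for the death ligand TRAIL, had levels of 6.52, 6.94 and 6.76 in iPSC high arrays, against 7.08, 7.0 and 7.39 in iPSC low arrays. In ESC they were 6.47, 6.80 and 6.69 in ESC high arrays, against 7.09, 7.18 and 7.22 in ESC low arrays. High arrays were below low arrays throughout, by -0.46 ± 0.10 (adjusted p = 0.0236). The call was lost without ESC high replicate 2, ESC low replicate 4, iPSC high replicate 2, iPSC high replicate 4 or iPSC low replicate 4, with adjusted p up to 0.0581.

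The BH3-only genes, whose products bind and block Bcl-2 proteins, did not pass. Pmaip1, encoding Noxa, had levels of 4.01, 3.87 and 3.88 in iPSC high arrays, against 4.02, 4.45 and 4.09 in iPSC low arrays, and 4.16, 3.65 and 3.83 in ESC high arrays, against 4.52, 4.27 and 4.18 in ESC low arrays. It was lower in 6 of 6 pairs with a difference of -0.36 ± 0.11 (adjusted p = 0.11). Bbc3, encoding Puma, had levels of 3.27, 3.16 and 3.25 in iPSC high arrays, against 3.24, 3.05 and 3.21 in iPSC low arrays, and 3.36, 3.01 and 2.71 in ESC high arrays, against 2.97, 3.28 and 3.07 in ESC low arrays. Its arrays overlapped in both cell types, its difference was -0.01 ± 0.10 with a 95% interval of -0.23 to 0.21 (adjusted p = 0.978), and its sign turned with single arrays left out.

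Fas, the death receptor for Fas ligand, had levels of 1.72, 1.79 and 1.95 in iPSC high arrays, against 1.76, 1.80 and 1.81 in iPSC low arrays, and 1.73, 1.77 and 1.78 in ESC high arrays, against 1.87, 1.91 and 1.79 in ESC low arrays. The difference was -0.03 ± 0.06 (adjusted p = 0.847). Fas, Bbc3 and the lysosomal autophagy gene Dram1 (0.01 ± 0.08) were the 3 members whose mean level (1.81, 3.13 and 2.60) lay below the middle of all probe sets. The 10 members that fell were all among the 28 brighter ones, whose median difference was -0.37. Of the remaining death targets, Apaf1, the core of the apoptosome, differed by -0.29 ± 0.11 (adjusted p = 0.245). Perp, a tetraspan membrane protein, was lower in 6 of 6 pairs, with -0.38 ± 0.10 (adjusted p = 0.0721, and 0.0169 with the replicate block). The nuclease gene Aen differed by -0.28 ± 0.09 (adjusted p = 0.129), and Ei24, of the endoplasmic reticulum, by -0.19 ± 0.10.

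Among the 6 targets in DNA repair and detoxification, 2 fell, against 0.905% of all probe sets, and the median difference was -0.30. Polk, the translesion DNA polymerase kappa, had levels of 4.20, 4.24 and 4.07 in iPSC high arrays, against 4.90, 5.08 and 5.07 in iPSC low arrays. Its ESC levels were 4.21, 4.37 and 4.62 in ESC high arrays, against 4.92, 4.79 and 4.98 in ESC low arrays. The arrays did not overlap, and the difference was -0.67 ± 0.08 (fold 0.627, adjusted p = 0.00099). Ephx1, the microsomal epoxide hydrolase, had levels of 4.48, 4.26 and 4.56 in iPSC high arrays, against 5.90, 4.97 and 6.35 in iPSC low arrays. Its ESC levels were 4.07, 5.08 and 5.11 in ESC high arrays, against 5.11, 6.25 and 6.10 in ESC low arrays. The arrays did not overlap in either cell type, although the nearest ESC high and ESC low arrays both read 5.11, and replicate 2 was the lowest of both ESC fractions. Its difference was the largest of the 31, -1.19 ± 0.26 (fold 0.44, adjusted p = 0.0344). The Ephx1 call was kept without ESC high replicate 4, ESC low replicate 2 or iPSC low replicate 3, and lost without any of the other 9 arrays, with adjusted p up to 0.0839.

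The nucleotide excision repair genes did not pass the test. Ddb2, which finds ultraviolet lesions, differed by -0.30 ± 0.09 (adjusted p = 0.103), and Ercc5, the endonuclease that cuts beside them, by -0.30 ± 0.08 (adjusted p = 0.07). With the replicate block both passed, at 0.0324 and 0.0367. Xpc, the damage sensor of global genome repair, differed by -0.09 ± 0.09. Rrm2b, a ribonucleotide reductase subunit that supplies nucleotides for repair, ran the other way. Its levels were 5.00, 4.92 and 5.10 in iPSC high arrays, against 4.51, 4.70 and 5.06 in iPSC low arrays, and 5.06, 5.05 and 4.79 in ESC high arrays, against 4.81, 4.78 and 4.74 in ESC low arrays. Rrm2b was higher in 6 of 6 pairs, by 0.04 to 0.49, but its difference of 0.22 ± 0.09 did not pass (adjusted p = 0.27).

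The 5 members gained under the replicate block, Mdm4, Cdkn1a, Perp, Ddb2 and Ercc5, brought the number of members lower over both cell types to 15, with none higher. The 10 calls of the fit without the block were all kept. In that blocked fit, 417 of all probe sets (1.65%) were lower and 523 higher, against 228 and 403 without the block. Leaving out each array in turn gave between 7 and 11 members, with 118 to 251 of all probe sets lower.

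By single pair, the median difference of the 31 members was -0.35, -0.30 and -0.48 in iPSC and -0.15, -0.30 and -0.32 in ESC, in the order of replicates 2, 3 and 4. The number of members below 0 was 26, 25 and 26 in the iPSC pairs and 19, 28 and 28 in the ESC pairs. ESC replicate 2 thus had the smallest median and the fewest members below 0. Over all probe sets, 50.2% to 51.2% lay below 0 in each pair. In all 6 pairs at once, 18 of the 31 members were lower in the high fraction, against 7.01% of all probe sets. The mean level of the 31 members was 5.72 to 5.79 in iPSC high arrays, against 6.02 to 6.27 in iPSC low arrays. It was 5.76 to 5.83 in ESC high arrays, against 6.05 to 6.18 in ESC low arrays, with no overlap in either cell type.

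Within iPSC alone, 6 of the 31 members were lower in the high fraction and none higher, against 0.198% of all probe sets lower and 0.349% higher. They were Trp53inp1 with -1.05 ± 0.14 (adjusted p = 0.0129), Polk with -0.85 ± 0.11 (0.0129), Pidd1 with -0.71 ± 0.11 (0.0155), Ccng1 with -0.69 ± 0.13 (0.0351), Phlda3 with -0.77 ± 0.15 (0.0403) and Zmat3 with -0.56 ± 0.11 (0.0463). Mdm2 stood just outside, with -0.49 ± 0.10 (adjusted p = 0.0505). Under the replicate block Zmat3 was lost (adjusted p = 0.0579) and Eda2r (0.042) and Ephx1 (0.021) were gained, with 0.373% of all probe sets lower. These iPSC calls leaned on single arrays. With replicate 4 of either iPSC fraction left out, none of the 6 passed. Over all probe sets, 50 were lower and 88 higher with every array. These fell to 4 and 9 without iPSC low replicate 4, and to 1 and 0 without iPSC high replicate 4. The member count was 2 with iPSC high replicate 3 left out (11 of all probe sets lower). It was 3 without iPSC high replicate 2 (21 lower), iPSC low replicate 2 (60 lower) or ESC low replicate 4 (41 lower). In iPSC, 18 members (58.1%) had every high array below every low array, against 9.57% of all probe sets.

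Within ESC alone, Trp53inp1 was the single member past the threshold, with -0.77 ± 0.14 (fold 0.588, adjusted p = 0.0483). The share of all probe sets called in ESC was 0.0516% lower and 0.305% higher. This call was lost without any 1 array except ESC low replicate 2, with adjusted p up to 0.186. The replicate block gave Trp53inp1 an adjusted p of 0.0263 and added Ephx1 (-1.06 ± 0.18, adjusted p = 0.044), with 0.123% of all probe sets lower. The members' median difference was -0.35 in iPSC with 26 of 31 below 0, and -0.29 in ESC with 28 of 31 below 0. At an unadjusted p under 0.05 there were 17 members in iPSC, against 12.7% of all probe sets, and 14 in ESC, against 8.29%. In ESC, 14 members (45.2%) had every high array below every low array, against 6.36% of all probe sets.

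No member passed the test of a difference between the cell types in the high minus low effect (limma interaction, iPSC effect minus ESC effect), and 0.0% of all probe sets did. At an unadjusted p under 0.05 there were 2 members and 1100 probe sets (4.36%). The 2 were Phlda3, with -0.77 in iPSC and -0.15 in ESC, a difference of -0.62 ± 0.21 (unadjusted p = 0.0115), and Pidd1, with -0.71 in iPSC and -0.21 in ESC, a difference of -0.50 ± 0.15 (unadjusted p = 0.00566). Both had an adjusted p of 1.0. The numbers of 6 calls in iPSC and 1 in ESC are therefore not shown to differ. Below 0 in both cell types at once were 25 of the 31 members, against 31.0% of all probe sets.

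Between iPSC and ESC, averaged over the fractions, no member passed the test, while 1.96% of all probe sets were lower in iPSC and 0.916% higher. At an unadjusted p under 0.05, limma gave 6 of the 31 members and 14.7% of all probe sets. Ccng1 with -0.30 ± 0.09 (adjusted p = 0.11), Pidd1 with -0.23 ± 0.07, Mdm2 with -0.21 ± 0.07 and Zmat3 with -0.18 ± 0.08 lay lower in iPSC, and Sesn2 with 0.24 ± 0.10 and Plk3 with 0.24 ± 0.11 lay higher. Ccng1 passed without ESC high replicate 2 (adjusted p = 0.0452), and with the replicate number as a random block its adjusted p was 0.163. The members' median was -0.01, with 18 of 31 below 0.

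**Figure D3:**
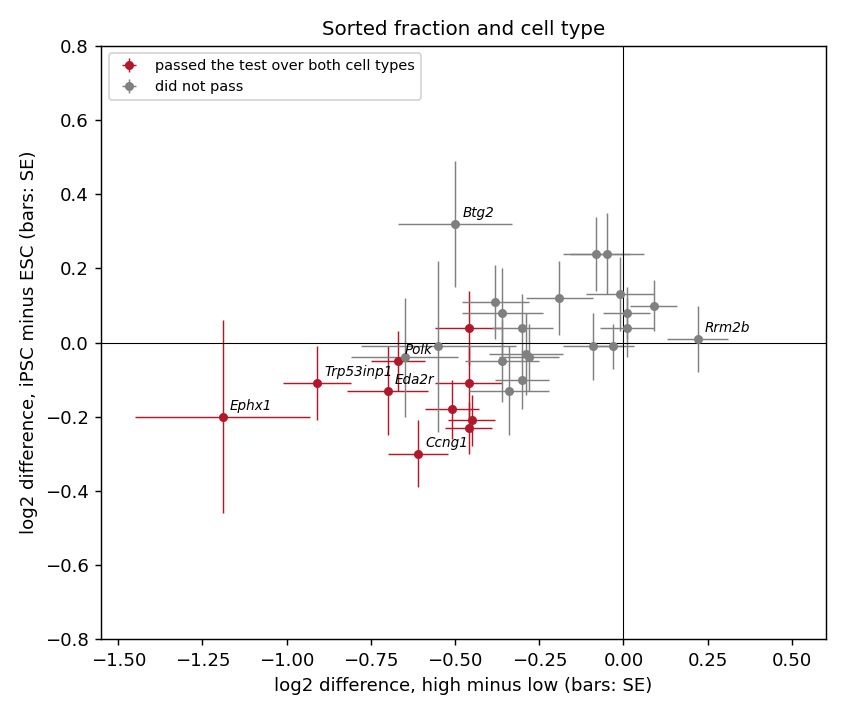
Difference in log2 level of each of the 31 p53 genes between the fractions (horizontal, high minus low over both cell types) and between the cell types (vertical, iPSC minus ESC over both fractions), with standard errors as bars and red for the 10 that passed the test between fractions. The horizontal estimates run between -1.19 and 0.22 and the vertical ones between -0.30 and 0.32, with none past the threshold on the vertical axis.

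Further p53 targets came from a longer list. Of 42 listed, 39 were measured, with a median difference of -0.06 and 28 below 0, against 49.1% of all probe sets below 0. In the high fraction 2 were lower and none higher, against 0.905% and 1.6% of all probe sets. The 2 were Ankra2, an ankyrin repeat protein (-0.38 ± 0.07, adjusted p = 0.0108), and Trim32, a ubiquitin ligase (-0.51 ± 0.12, adjusted p = 0.0429). Next in order of p were the potassium chloride cotransporter gene Slc12a4 (-0.46 ± 0.12, adjusted p = 0.0792) and the adaptor gene Traf4 (-0.26 ± 0.08, adjusted p = 0.0986). The share that fell was thus 2 of 39 here and 10 of 31 among the members, and the difference between the lists was not tested. Between the cell types, Pltp, encoding a phospholipid transfer protein, was higher in iPSC (0.34, adjusted p = 0.0339), as were 0.916% of all probe sets.

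Of 27 listed regulators of p53, 25 were measured. Hexim1, an inhibitor of the elongation factor P-TEFb that also binds p53, rose (0.55 ± 0.12, adjusted p = 0.0324), none fell, and the median was -0.01. Among all probe sets 1.6% were higher and 0.905% lower. Lower estimates that did not pass belonged to the ubiquitin ligase gene Rchy1 (-0.28 ± 0.09, adjusted p = 0.127), the kinase gene Hipk2 (-0.29 ± 0.11, adjusted p = 0.211) and Ppp1r13b, encoding ASPP1 (-0.20 ± 0.08, adjusted p = 0.225). Between the cell types, Rchy1 (-0.59, adjusted p = 0.00403) and the ribosomal protein gene Rpl5, whose product can bind Mdm2 (-0.58, adjusted p = 0.00816), were lower in iPSC. Of all probe sets, 1.96% were lower in iPSC.

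**Figure D4:**
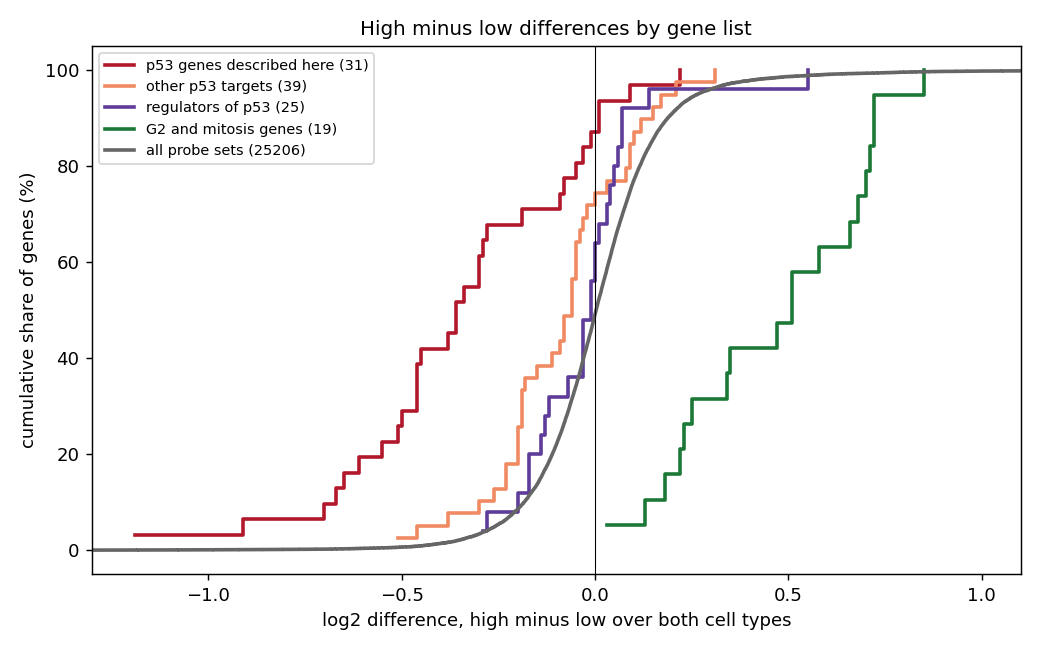
Cumulative share of genes (vertical, percent) against the difference in log2 level, high minus low over both cell types, for the 31 p53 genes, the 39 other p53 targets, the 25 regulators of p53, the 19 G2 and mitosis genes and all 25206 probe sets. The axis stops short of the tails of all probe sets, and the medians are -0.36 for the p53 genes, -0.06 for the other targets, -0.01 for the regulators and 0.51 for G2 and mitosis.

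Most, but not all, genes of a G2 and mitosis list moved with the fractions as well, and other cell cycle phases were not read. Of 20 listed G2 and mitosis genes, 19 were measured, 14 were higher in the high fraction and none lower, with a median of 0.51. Among all probe sets 1.6% were higher and 0.905% lower. The ubiquitin conjugating enzyme gene Ube2c (0.71 ± 0.06, adjusted p = 0.000232), the spindle gene Nusap1 (0.70 ± 0.06, adjusted p = 0.00024) and the mitotic kinase genes Aurkb (0.68 ± 0.07, adjusted p = 0.000448) and Aurka (0.85 ± 0.09, adjusted p = 0.000448) had the lowest p. In each cell type alone 10 of the 19 were higher, against 0.349% of all probe sets in iPSC and 0.305% in ESC. The mean level of the 19 was 8.51 to 8.58 in iPSC high arrays, against 8.07 to 8.12 in iPSC low arrays. It was 8.39 to 8.54 in ESC high arrays, against 7.97 to 8.04 in ESC low arrays.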

How the data were processed

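RNA of 12 flow-sorted samples was hybridised to Affymetrix arrays after biotin labelling. The values deposited are log2 expression levels that the authors made with RMA, affy 1.36.1 and R 2.15.1, per the submitters' processing notes. RMA subtracts an estimated background, applies quantile normalization across arrays and condenses each probe set to 1 value, which draws the arrays' distributions together. For the chip definition and the genome build, the sources used here give no name. Detection calls were not used, and the number of arrays limits the precision.

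The platform annotation gave 1 gene symbol to 23185 of 25206 probe sets, several to 0 and none to 2021. The named ones were all present by gene number in the GRCm38.p6 RefSeq table, and 0 symbols changed. Of the 34 members, 3 were not analysed here. Promoter windows and their coordinates are RefSeq's, of GRCm38.p6.

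In R 4.3.3 with limma 3.58.1, 1 mean per group was fitted over all 12 arrays, with moderated variances and no block. The 5 comparisons (high minus low in each cell type, over both, the difference of those effects, and iPSC minus ESC) were each adjusted by Benjamini-Hochberg over all probe sets, with a threshold of 0.05. Errors are standard errors of the fit. The code was tested on simulated data. Python 3.11.15 with matplotlib 3.10.9 made the figures.

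Replicate numbers were checked for pairing. Residuals of high and low arrays of equal number correlated at 0.107, 0.127 and 0.213 in iPSC and at 0.341, 0.233 and 0.283 in ESC, so within a cell type equal numbers were treated as pairs, which the labels do not state. Between cell types the correlations of equal numbers were -0.095 to 0.131, and those were not taken as pairs. Arrays of unequal number reached 0.003 within a cell type and 0.167 between cell types (ESC high 2 with iPSC high 3). Residuals from a group mean cancel over the arrays of that group. A positive correlation at equal numbers thus pushes the unequal ones within that cell type toward negative values. The 0.003 is therefore not separate support for the pairing. That 0.167 lies above the iPSC values of 0.107 and 0.127, so the pairing is less sure in iPSC. Blocked values are printed where they change a call.

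Values are given for every member, with array values for each member past the threshold in any comparison and for Mdm2, Mdm4, Cdkn1a, Trp53inp1, Bbc3, Pmaip1 and Fas, and for Rrm2b and the far Ddit4 array, chosen after their values were seen. Of the other lists the text names up to 4 genes with the lowest p over both cell types, and every gene past the threshold where these are at most 6. The markers Lama1, Pou5f1 and Dppa5a are named for their levels, chosen after these were seen. The members and all lists were chosen with earlier results of these data known. The alternatives were a filter on low values, an intensity trend, robust variances, median centring, the fit of only the 2 groups compared, the replicate block and leaving out each array.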

Additional observations from a re-analysis of the deposited data

How the results depend on the processing

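Of the 17 member calls in the 5 comparisons, none reversed under any alternative, and 7 were lost under none, namely Mdm2, Trp53inp1, Ccng1, Zmat3, Eda2r, Pidd1 and Polk over both cell types. Over both cell types the count of members lower was 10, and it was 12 of 28 tested with the filter on low values, 11 with an intensity trend, 10 with robust variances, 13 with median centring, 15 with the replicate block and 7 to 11 with 1 array left out. Bbc3, not called, changed sign with 1 array left out, its values spanning -0.093 to 0.068. In iPSC the count was 6, and it was 2 with only the 2 groups compared, 7 with the replicate block and 0 to 6 with 1 array left out. In ESC the count was 1, and it was 0 with robust variances or with only the 2 groups compared, 2 with the replicate block and 0 to 1 with 1 array left out. The interaction gave 0 members under each alternative run. Between iPSC and ESC the count was 0, and it was 1 (Ccng1) with an intensity trend and 0 to 1 with 1 array left out. Over all probe sets and both cell types, 228 were lower and 403 higher, against 417 and 523 with the replicate block and 368 and 361 with median centring, which moves the split toward lower calls. They were 290 and 449 with an intensity trend, 226 and 402 with robust variances, and 300 and 324 of 12603 tested with the filter. With 1 array left out, 118 to 251 were lower. In iPSC 50 were lower and 88 higher, against 94 and 142 with the replicate block. They were 36 and 64 with only the 2 groups compared, and 85 and 70 with median centring, which turns the excess. Without iPSC high replicate 4 they were 1 and 0. In ESC 13 were lower and 77 higher, against 31 and 146 with the replicate block, 3 and 36 with only the 2 groups compared and 1 and 18 without ESC high replicate 2. Between iPSC and ESC 493 were lower and 231 higher, against 320 and 143 with the replicate number as a random block. The cause of these changes was not tested. Fas, Bbc3 and Dram1, the dimmest members, were not tested under the filter. Whether dim probe sets lie above background is not known from these values.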
